A study of Mus musculus with 12 samples.

Results

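*Cdh1*, *Trp53* and *Smad4* are the genes engineered in the mouse from which the S1 gastric cancer (GC) cell line came. They were found by exact gene symbol in the deposited expression tables of every library, and all 3 were present, of 18926 genes listed. The source mouse carried Cre-removable (floxed) alleles and is known as ChetPS: *Cdh1* was heterozygous for its floxed allele (F/+), and *Trp53* and *Smad4* were each homozygous (F/F). All S1 libraries, controls included, came from this background, and none is labelled as carrying unrecombined alleles. The levels therefore cannot be set against intact alleles, and a count per gene does not separate reads inside a floxed segment from reads outside it. The driver of Cre is not given in the sources used here.

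S1 cells received Cas9 by PiggyBac transposition and a single-guide RNA (sgRNA) by lentivirus, and the series asks how loss of *Nf2* and *Rasa1*, alone or together, changed their transcriptome. The 12 libraries fell by label into 4 groups of 3: control cells, *Rasa1*-knockout (KO) cells, *Nf2*-KO cells, and double-KO cells with both genes targeted. The study's methods name a non-targeting sgRNA and an intact plasmid backbone as controls. Which of these the control libraries had is not stated. The study's methods give the sequenced cells as tumorspheres, spheres grown from single cells on low-attachment plates, whereas the labels call them monolayer cells. The labels' protocol names 2 sphere media, and the sources used here do not say which library had which. Ribosomal RNA was depleted and total RNA was sequenced to 43818139 to 96674463 counts per library. The study describes the libraries of a group as technical replicates, and nothing in the labels ties them to separate cultures or clones. The p-values below therefore measure the spread between such libraries (n = 3 in each group), not between independent cultures.

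E-cadherin, the product of *Cdh1*, joins epithelial cells to each other at the adherens junction, where catenins tie it to actin. Germline loss of one copy predisposes people to diffuse gastric cancer. The *Trp53* product, p53, is a transcription factor that is held low by MDM2 and, once stabilised by damage or stress, turns on genes for cell cycle arrest, apoptosis and repair. SMAD4 is the partner that receptor-activated SMAD proteins share when they carry TGF-β and BMP signals into the nucleus.

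*Trp53* spans chr11:69580348-69591873 on the plus strand of GRCm38.p6 (RefSeq annotation). It starts 98 bases from *Wrap53*, which runs the opposite way, and the annotated genes do not overlap. Their shared start region is shown because both genes of this divergent pair are measured below. It runs from the base next to *Wrap53* into the first bases of *Trp53* and is the 127 bases chr11:69580251-69580377 of the plus strand (RefSeq, GRCm38.p6), with a motif match in capitals:

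Trp53: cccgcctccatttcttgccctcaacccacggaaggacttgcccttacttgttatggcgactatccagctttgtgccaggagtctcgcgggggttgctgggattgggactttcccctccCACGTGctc

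The capitals mark CACGTG, the E-box bound by factors such as MYC, and the match lies inside *Trp53*. Both strands of the RefSeq promoter window, from 250 bases before to 50 after a *Trp53* start site at position 69580359 (inside the gene span above), were searched for it and for CAGGTG, the E2-box read by ZEB and SNAIL factors. CACGTG was found in 7.15% and CAGGTG in 20.2% of the 32851 RefSeq promoter windows of that length. CAGGTG was not among the letters of the *Trp53* window. A match describes the letters and was not tested as a site.

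*Nf2* and *Rasa1* were read in every library first, as a check of the labels. *Nf2*, which encodes the Hippo pathway protein Merlin, stood at 58.1, 61.0 and 55.4 CPM (counts relative to library size, scaled with TMM factors) in control, at 11.6, 11.9 and 12.1 in the *Rasa1*-KO-labelled libraries, at 14.3, 13.2 and 13.2 in *Nf2*-KO, and at 62.6, 57.6 and 56.4 in the double-KO-labelled libraries. *Rasa1*, which encodes a Ras GTPase-activating protein, stood at 60.5, 74.9 and 78.5 CPM in control, at 34.5, 30.4 and 30.8 in the *Rasa1*-KO-labelled libraries, at 97.3, 101 and 97.2 in *Nf2*-KO, and at 17.7, 20.6 and 23.3 in the double-KO-labelled ones. *Nf2* thus went against 2 of the labels, being low in the *Rasa1*-KO-labelled libraries and at the control level in the double-KO-labelled ones. The names of the deposited tables also give these 2 groups exchanged. The study, in its RNA sequencing, reports target genes of the Hippo effectors YAP and TAZ as raised or tending upward in *Nf2*-KO and double-KO tumorspheres. It also reports Hippo/YAP gene sets as enriched in double-KO over *Rasa1*-KO ones. Those measures refer to the study's own group names, and they were not tested here. The study does not say whether its groups follow the labels or the names of the deposited tables. The groups are called by their labels throughout, and every direction below for *Rasa1*-KO-labelled or double-KO-labelled libraries holds for the label, not for an established genotype.

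A second feature split the libraries. *Malat1* and *Neat1*, 2 abundant nuclear long non-coding RNAs, held 5.34% and 5.69% of the counts in control libraries 1 and 2 and 5.19% and 5.13% in double-KO-labelled libraries 2 and 3. The control library with no number in its title had 1.75%, labelled double-KO library 1 had 2.22%, and the 6 *Rasa1*-KO-labelled and *Nf2*-KO libraries had 1.55% to 2.30%. The 4 high libraries therefore sat in 2 of the 4 groups, and each of these groups also held 1 low library. Those 2 low libraries are the ones of their groups whose table names carry no number, and no label says what the number means. Results on the 3 genes are therefore also given from a fit with this share as a covariate and, except for *Nf2*-KO against *Rasa1*-KO-labelled libraries, from a fit without the 4 high libraries, which left 1 control and 1 labelled double-KO library that are assumed to vary like the other groups. These fits called more genes. Against control, in *Rasa1*-KO-labelled, *Nf2*-KO and double-KO-labelled libraries, the covariate fit called 44.6%, 48.2% and 22.9% of genes, and in labelled double-KO against labelled *Rasa1*-KO and against *Nf2*-KO it called 39.5% and 43.1%. Without the 4 libraries the shares were 48.6%, 50.9%, 21.0%, 47.4% and 48.4% of 18193 genes in the same order, and over all 4 groups at once they were 56.8% with the covariate and 66.3% without the 4 libraries.

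Measured per length, *Cdh1* was the most abundant of the 3 transcripts. Its FPKM (a count corrected for transcript length and library depth) was 102 ± 23.9 in control, 31.2 ± 3.57 in the *Rasa1*-KO-labelled libraries, 22.8 ± 2.76 in *Nf2*-KO and 76.7 ± 11.4 in the double-KO-labelled ones (mean ± SD, n = 3 in each group here and below). Among protein-coding genes of the same library this placed it between percentile 78.2 and percentile 97.9. *Trp53* was at 3.09 ± 1.18, 1.32 ± 0.294, 1.65 ± 0.136 and 2.47 ± 0.400 FPKM in the same order of groups, from percentile 23.9 to 38.6. *Smad4* was at 2.96 ± 1.10, 2.59 ± 0.239, 2.73 ± 0.103 and 2.38 ± 0.381 FPKM, from percentile 28.8 to 38.3. Transcripts of both homozygously floxed genes were thus counted in every library, with 218 to 520 counts for *Trp53* and 1466 to 1908 for *Smad4*.

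The ratio of *Cdh1* to *Trp53* on the FPKM scale ran from 11.2 to 44.4 over the 12 libraries, and that of *Cdh1* to *Smad4* from 7.65 to 46.0. The ratio of *Smad4* to *Trp53* separated the groups in another way, at 0.967 ± 0.0899 in control and 0.961 ± 0.0185 in double-KO-labelled libraries, but 2.01 ± 0.313 in labelled *Rasa1*-KO and 1.66 ± 0.187 in *Nf2*-KO libraries. In the first 2 groups both transcripts were at like levels per length, and in the other 2 *Smad4* was the higher. No test was run on these ratios.

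**Figure D1:**
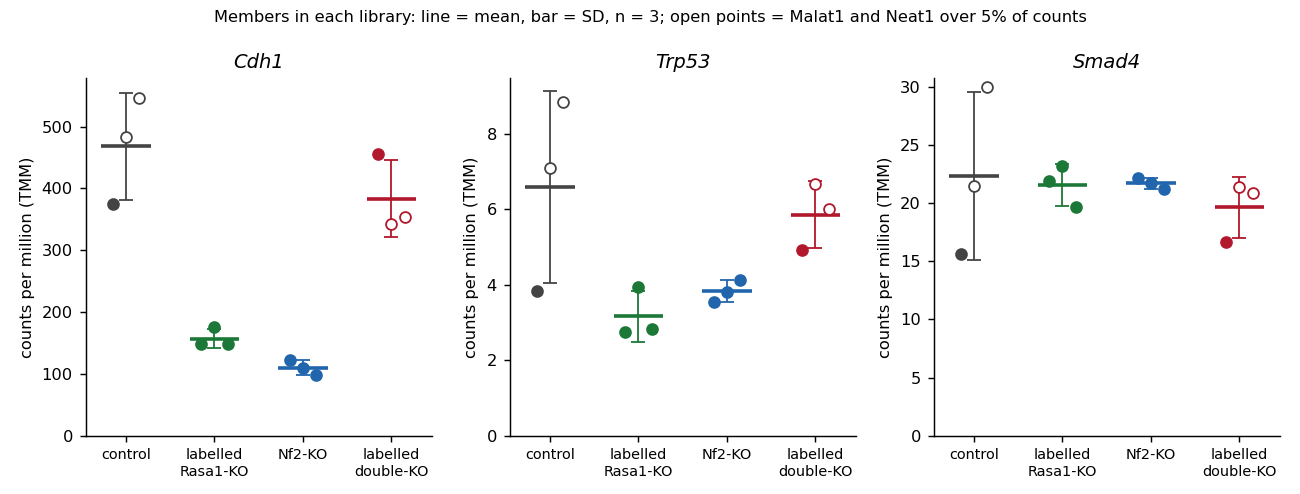
Level of *Cdh1*, *Trp53* and *Smad4* (y axis, CPM with TMM scaling, linear from 0) in the 3 libraries of each group (x axis). Points are libraries, lines are means and bars are SD, and open points have over 5% of counts on *Malat1* and *Neat1*. For *Cdh1* the *Rasa1*-KO-labelled and *Nf2*-KO libraries (98.3 to 175 CPM) sit below all control and double-KO-labelled libraries (342 to 546 CPM), while the *Smad4* groups overlap.

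*Cdh1* was lower in the *Rasa1*-KO-labelled libraries and in *Nf2*-KO than in control, and its difference from control in the double-KO-labelled libraries did not pass the test. Control libraries had 374, 483 and 546 CPM. The *Rasa1*-KO-labelled libraries had 148, 175 and 149 CPM, *Nf2*-KO libraries had 123, 109 and 98.3, and double-KO-labelled libraries had 455, 342 and 353. Neither of the 2 low groups overlapped control or double-KO-labelled libraries, and those 2 overlapped each other. The 3 contrasts with control share the same control libraries.

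Against control *Cdh1* fell by 1.57 ± 0.16 (log2, ± SE) in the *Rasa1*-KO-labelled libraries (adjusted p = 2.5e-05) and by 2.09 ± 0.17 in *Nf2*-KO (adjusted p = 2.2e-06), by edgeR's quasi-likelihood test with Benjamini-Hochberg adjustment over the 18053 genes tested. Calls at an adjusted p under 0.05 were common in these contrasts, at 41.9% and 42.8% of all genes tested, and 46.8% of genes had non-overlapping groups in each of them (18.4% in double-KO-labelled libraries against control). In double-KO-labelled libraries the log2 difference was -0.29 ± 0.16 (95% interval -0.64 to 0.07, adjusted p = 0.339), in a contrast in which 6.46% of genes were called. It passed when the unnumbered control library was left out (-0.42, adjusted p = 0.0372) and when both libraries whose tables have no number were left out (-0.56, adjusted p = 0.0043), and the direction turned without the 4 libraries high in *Malat1* and *Neat1* (0.31, adjusted p = 0.180). With the covariate it was -0.27 (adjusted p = 0.191).

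Between the KO groups, *Cdh1* was higher in double-KO-labelled libraries than in the *Rasa1*-KO-labelled ones by 1.29 ± 0.16 (log2, adjusted p = 0.00018, with 30.3% of genes called) and than in *Nf2*-KO by 1.80 ± 0.17 (adjusted p = 1.1e-05, with 32.2% called). *Nf2*-KO libraries were all below the *Rasa1*-KO-labelled ones, by 0.51 ± 0.16, which did not pass the test (adjusted p = 0.118) in a contrast with 3.66% of genes called and 39.8% without overlap. With the *Malat1* and *Neat1* share as a covariate that difference was -0.53 (adjusted p = 0.0277, with 14.5% of genes called), and it passed too in a fit of these 2 groups alone (-0.51, adjusted p = 0.0032) and by DESeq2 (-0.51, adjusted p = 0.041). The 4 called differences kept their call with the covariate, at -1.46, -1.99, 1.19 and 1.72, and without the 4 high libraries, at -1.24, -1.76, 1.55 and 2.07.

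Taken over all 4 groups at once, a test that does not change when group labels are exchanged gave adjusted p = 3.6e-06 for *Cdh1* (edgeR, 3 coefficients, 46.3% of genes called), 3.8e-06 with the covariate and 2.2e-07 without the 4 high libraries. The exact permutation test of the spread of group means on log2 CPM over the 15400 splits of 12 libraries into 4 groups of 3 gave p = 0.00013. The order of group means was thus control, labelled double-KO, labelled *Rasa1*-KO and *Nf2*-KO, and the neighbours that did not differ by the test were the first pair and the last pair. The genes most like *Cdh1* over the 12 libraries on log2 CPM, of 13592 compared, were *Abcc4*, a drug and nucleotide exporter (Pearson r = 0.994), *Tgoln1*, a trans-Golgi protein (r = 0.993), and *Ctdspl*, a phosphatase (r = 0.992). The 12 points share library depth and group differences, so these values are descriptive.

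**Figure D2:**
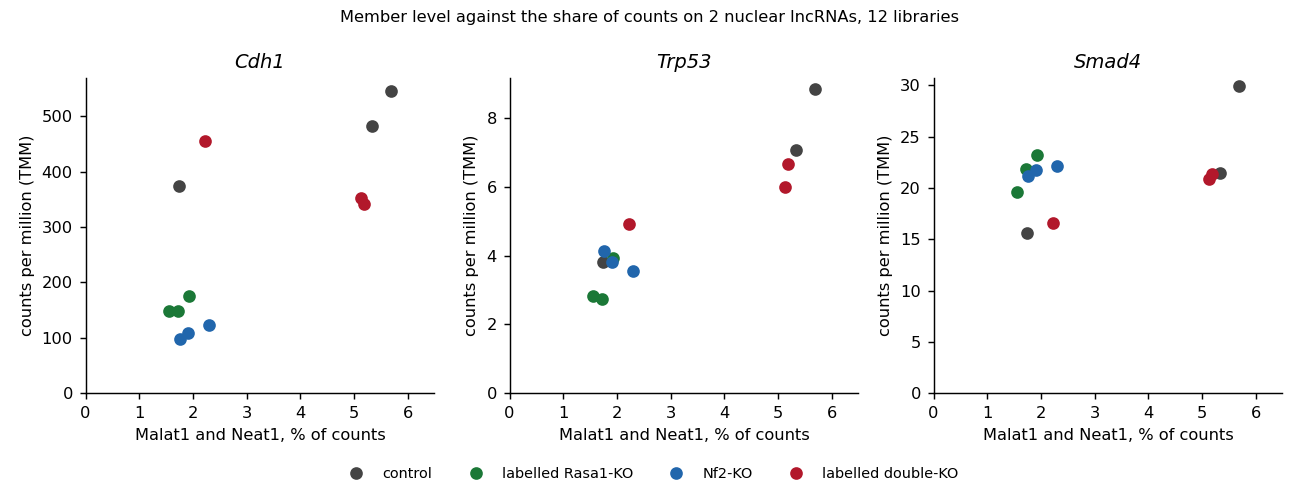
Level of each gene (y axis, CPM with TMM scaling) against the share of counts on *Malat1* and *Neat1* (x axis, percent), 1 point per library and 1 colour per group. *Trp53* is highest in the 4 libraries with over 5% (6.0 to 8.85 CPM), whereas *Cdh1* is low only in labelled *Rasa1*-KO and *Nf2*-KO libraries, all of which have a low share.

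*Cdh1* spans chr8:106603350-106670247 on the plus strand (RefSeq, GRCm38.p6), and its nearest genes gave no call against control. *Cdh3*, which encodes P-cadherin and lies 46439 bases to the lower-coordinate side, had log2 differences of -0.04, 0.17 and -0.17 in labelled *Rasa1*-KO, *Nf2*-KO and double-KO-labelled libraries (adjusted p = 0.938, 0.707 and 0.832, edgeR). *Tango6*, 12821 bases to the other side, had -0.46 in the *Rasa1*-KO-labelled libraries (adjusted p = 0.057). The pseudogene *Gm10073* and the long non-coding *Gm34197* had group means of 1.14 CPM or less and did not pass the test either.

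The other genes of the E-cadherin junction did not move as a block. Of 47 listed genes, 42 were tested, and against control 6 were higher and 12 lower in the *Rasa1*-KO-labelled libraries, 9 higher and 14 lower in *Nf2*-KO, and 2 higher and 2 lower in double-KO-labelled libraries. These were 42.9%, 54.8% and 9.52% of the genes tested, beside 41.9%, 42.8% and 6.46% of all genes. Of all genes, 19.7%, 20.6% and 4.0% were called higher and 22.2%, 22.2% and 2.46% lower. The list's median log2 differences were -0.06, -0.19 and 0.11, and those of all genes were -0.08, -0.07 and -0.04. The balance of calls moved with the *Malat1* and *Neat1* share as a covariate. In that fit 14 were higher and 11 lower in the *Rasa1*-KO-labelled libraries, 14 and 14 in *Nf2*-KO, and 12 and 4 in double-KO-labelled libraries. Of all genes that fit called 44.6%, 48.2% and 22.9%. *Cdh5*, *Ctnna2*, *Twist1*, *Ovol2* and *Esrp1* were not listed in the tables, which hold genes with at least 1 count in every library. Genes below that complete a count of 5 or fewer and fall outside the naming rule were chosen after their values were seen.

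Among the other cadherins, *Cdh17*, the liver-intestine cadherin, rose from 17.5 to 34.0 CPM in control libraries to 107 to 114 in the *Rasa1*-KO-labelled ones (log2 2.01 ± 0.19) and 68.8 to 75.6 in *Nf2*-KO (1.38 ± 0.19). *Cdh6*, the kidney cadherin, fell from 139 to 246 CPM to 37.8 to 48.0 (-2.20 ± 0.19) and 29.5 to 36.8 (-2.52 ± 0.19). *Cdh6* was also called lower in double-KO-labelled libraries (-0.74 ± 0.18, adjusted p = 0.034). *Cdh2*, which encodes N-cadherin, was higher in *Nf2*-KO by 0.45 ± 0.12. *Cdh13*, the cadherin of the list with the highest level per length (23.8 FPKM on average), passed in no contrast with control. So a cadherin other than *Cdh1* rose and another fell in both low groups.

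Of the 7 catenins and actin linkers tested, 4 were called lower in the *Rasa1*-KO-labelled libraries and 3 in *Nf2*-KO. Of all genes 22.2% were called lower in each of these contrasts. None was called higher there by edgeR, against 2 at an unadjusted p under 0.05 in the former and 1 in the latter, and DESeq2 called 2 higher in each. *Ctnnb1*, which encodes β-catenin and at 268 ± 51.6 FPKM (n = 12) was above *Cdh1* per length, fell by 0.39 ± 0.13 and 0.56 ± 0.13. *Jup*, which encodes plakoglobin, fell by 0.75 ± 0.14 and 1.19 ± 0.14, and *Lima1*, which encodes the actin linker EPLIN, fell by 0.57 ± 0.10 and 1.11 ± 0.10. *Ctnnd1*, which encodes p120-catenin, had -0.75 ± 0.27 (adjusted p = 0.042) and -0.71 ± 0.27 (adjusted p = 0.052), and *Ctnna1*, which encodes α-catenin, passed in no contrast with control. In double-KO-labelled libraries *Vcl*, which encodes vinculin, was called higher (0.54 ± 0.14, adjusted p = 0.040) and *Lima1* lower (-0.39 ± 0.10, adjusted p = 0.043).

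Of the 8 nectin and partner genes, *Plekha7*, which links p120-catenin to microtubules, had the largest drop, from 51.5 to 60.0 CPM in control libraries to 14.3 to 16.4 in the *Rasa1*-KO-labelled ones (-1.85 ± 0.10) and 7.61 to 8.84 in *Nf2*-KO (-2.71 ± 0.11). *Nectin3* rose by 1.07 ± 0.10 and 1.26 ± 0.10, while *Nectin1*, *Nectin2* and *Pard3* were called lower in both groups. *Iqgap1*, the most abundant of the role, passed in no contrast with control. Of the 5 genes for E-cadherin trafficking and turnover, *Arf6* was called higher in both groups (0.77 ± 0.17 and 0.68 ± 0.17), and *Pip5k1c* (-1.09 ± 0.16 and -1.43 ± 0.16) and *Adam10*, the sheddase of E-cadherin (-1.0 ± 0.24 and -1.11 ± 0.24), were called lower.

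Of the 7 transcriptional repressors of *Cdh1* tested, 3 were called higher in the *Rasa1*-KO-labelled libraries and 5 in *Nf2*-KO. Of all genes 19.7% and 20.6% were called higher in these contrasts. None of the 7 was lower in the 3 contrasts with control by edgeR, by DESeq2 or at an unadjusted p under 0.05. In *Nf2*-KO libraries 5 of the 7 tested were higher than control, namely *Snai1* (2.31 ± 0.37), *Snai2* (1.23 ± 0.27), *Zeb2* (0.91 ± 0.20), *Zeb1* (0.75 ± 0.12) and *Twist2* (0.60 ± 0.14). In the *Rasa1*-KO-labelled libraries they were *Snai1* (1.27 ± 0.36), *Twist2* (0.63 ± 0.14) and *Zeb1* (0.44 ± 0.12), and in double-KO-labelled libraries 0 of the 7 passed by edgeR (1 at an unadjusted p under 0.05, 0 by DESeq2). *Snai1* remained scarce, with 0.616 to 2.18 CPM in control libraries, 3.21 to 3.65 in labelled *Rasa1*-KO and 6.30 to 8.11 in *Nf2*-KO. *Tcf3*, the repressor with the highest level per length, was at 54.0 to 61.0 CPM in control libraries and passed in no contrast with control.

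Activators of epithelial genes were called lower for 4 of 8 in *Nf2*-KO, namely *Elf3* (-1.58 ± 0.21), *Grhl3* (-1.18 ± 0.18), *Grhl1* (-0.97 ± 0.21) and *Esrp2* (-0.67 ± 0.15). *Grhl3* was the one called in the *Rasa1*-KO-labelled libraries (-1.35 ± 0.18), and it was called higher in double-KO-labelled libraries (0.65 ± 0.17, adjusted p = 0.046). *Elf3* was at 46.2 to 73.1 CPM in control libraries and 20.1 to 22.9 in *Nf2*-KO, with no overlap. All p-values of these list genes are from the same edgeR fit.

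With the *Malat1* and *Neat1* share as a covariate, 15 of the 18 junction calls in the *Rasa1*-KO-labelled libraries and 22 of the 23 in *Nf2*-KO were kept, and without the 4 high libraries 14 and 21 were kept. *Ctnnd1*, *Nectin1* and *Adam10* lost the call in the *Rasa1*-KO-labelled libraries in both fits and *Pard3* without the 4 libraries, and in *Nf2*-KO *Nectin1* lost it in both and *Adam10* without the 4 libraries. In double-KO-labelled libraries the 4 calls were kept with the covariate, but *Cdh6*, *Lima1* and *Grhl3* lost theirs without the 4 high libraries. With the numbers in the table names as a replicate block, 11 junction genes were called there. The 4 calls in double-KO-labelled libraries rested on single libraries: 0 junction genes were called without labelled double-KO library 2 or 3, 2 without control library 1 or 2, and 21 without the unnumbered control library. The covariate fit also called genes that the main fit did not. It called 25 junction genes in the *Rasa1*-KO-labelled libraries and 28 in *Nf2*-KO. Of these 14 were higher in each group, beside 6 and 9 in the main fit.

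**Figure D3:**
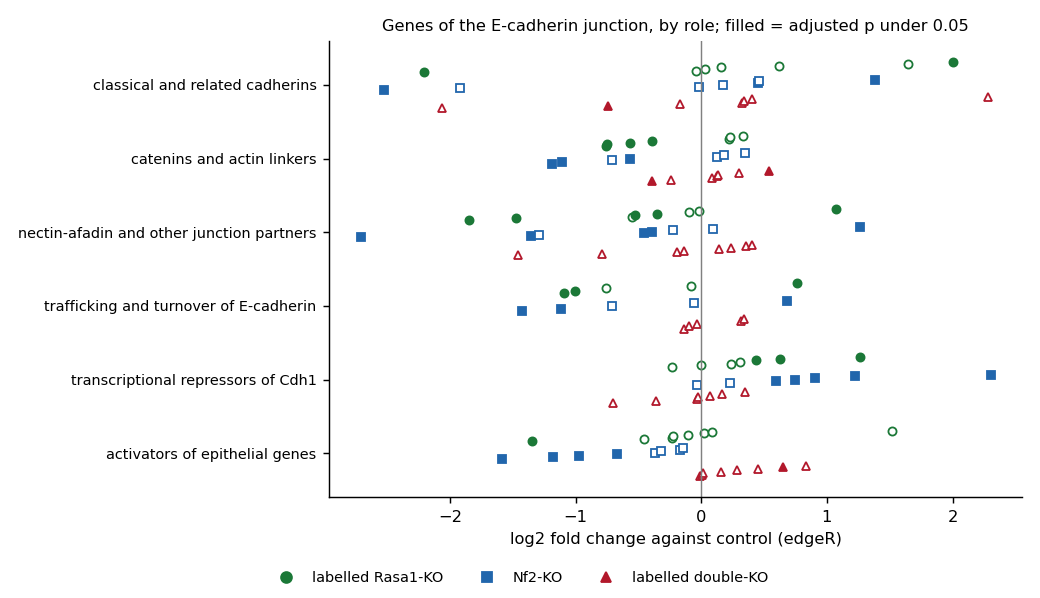
Log2 fold change against control (x axis, edgeR) of the 42 tested genes of the E-cadherin junction list, by role (y axis), with 1 symbol per gene and group and filled symbols for an adjusted p under 0.05. Filled symbols lie to the right for repressors of *Cdh1* (3 labelled *Rasa1*-KO, 5 *Nf2*-KO) and to the left for catenins and actin linkers in those 2 groups (4 and 3).

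*Trp53* was lower than control in the *Rasa1*-KO-labelled libraries and in *Nf2*-KO, but these differences moved with the *Malat1* and *Neat1* share. Control libraries spread widely, at 3.82, 7.08 and 8.85 CPM. The *Rasa1*-KO-labelled libraries had 2.74, 3.94 and 2.82 CPM, *Nf2*-KO libraries had 3.54, 3.81 and 4.12, and double-KO-labelled libraries had 4.91, 6.66 and 6.0. The unnumbered control library lay within the range of both low groups, so each overlapped control, whereas double-KO-labelled libraries lay above all 6.

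Against control the log2 difference of *Trp53* was -1.05 ± 0.27 in the *Rasa1*-KO-labelled libraries (adjusted p = 0.0097, edgeR) and -0.78 ± 0.27 in *Nf2*-KO (adjusted p = 0.0365). In double-KO-labelled libraries it was -0.17 ± 0.27 (95% interval -0.75 to 0.42, adjusted p = 0.776), with -0.13 under the covariate (adjusted p = 0.616) and 0.39 without the 4 high libraries (adjusted p = 0.320). With the share as a covariate the first 2 became -0.41 (adjusted p = 0.130) and -0.23 (adjusted p = 0.373), and without the 4 high libraries -0.26 (adjusted p = 0.345) and 0.01 (adjusted p = 0.980). In fits of the 2 groups alone neither passed, at -1.04 (adjusted p = 0.057) and -0.82 (adjusted p = 0.095). The *Nf2*-KO call was also lost without control library 1 (-0.73), without control library 2 (-0.53) and without *Nf2*-KO library 1 (-0.73), 2 (-0.77) or 3 (-0.84). The contribution of the share to these differences was not tested further.

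Labelled double-KO libraries had more *Trp53* than the *Rasa1*-KO-labelled ones by 0.89 ± 0.27 (log2, adjusted p = 0.029) and more than *Nf2*-KO by 0.61 ± 0.27, which did not pass (adjusted p = 0.105). Neither pair of groups overlapped, which was so for 57.2% and 56.6% of all genes in these contrasts. The first call was lost with the covariate (0.29, adjusted p = 0.298), kept without the 4 high libraries (0.65, adjusted p = 0.0255), and lost without labelled *Rasa1*-KO library unnumbered (0.79) or 2 (0.81), without labelled double-KO library 2 (0.78) or 3 (0.87), and with a block by the numbers in the titles (0.61, adjusted p = 0.133). The second difference was 0.10 with the covariate (adjusted p = 0.707) and 0.38 without the 4 high libraries (adjusted p = 0.157). It passed in a fit of the 2 groups alone (0.61, adjusted p = 0.011), with a block by the numbers in the table names (0.84, adjusted p = 0.013) and without the 2 libraries whose tables have no number (0.73, adjusted p = 0.0032). *Nf2*-KO and *Rasa1*-KO-labelled libraries differed by 0.27 ± 0.27 (95% interval -0.32 to 0.87, adjusted p = 0.738), and by 0.19 with the covariate (adjusted p = 0.521).

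Over all 4 groups the test of *Trp53* gave adjusted p = 0.0198 (edgeR) and the exact permutation test p = 0.0422. With the covariate the adjusted p was 0.374 and without the 4 high libraries 0.0868. The call was also lost without control library 1 (0.0504) and without labelled *Rasa1*-KO library unnumbered (0.0619) or 2 (0.0610). The genes most like *Trp53* over the 12 libraries were the long non-coding RNAs *Gm32888* (r = 0.981), *Gm41620* (r = 0.981) and *LOC115486908* (r = 0.976). Each had its highest group mean in control, as *Trp53* had.

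*Wrap53*, which starts on the other side of the printed region and encodes a telomerase trafficking protein, had 16.0, 14.7 and 10.9 CPM in control, 14.3, 12.5 and 12.2 in *Rasa1*-KO-labelled libraries, 15.2, 15.4 and 15.1 in *Nf2*-KO, and 17.7, 17.0 and 16.9 in double-KO-labelled libraries. In control it was therefore highest in the library where *Trp53* was lowest. Over all genes tested, 31.1% had the order of *Trp53* in the 3 control libraries and 34.1% had the order of *Wrap53*.

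*Wrap53* passed in no contrast with control (log2 -0.10, 0.13 and 0.31, adjusted p = 0.592, 0.449 and 0.217). It was higher in double-KO-labelled libraries than in the *Rasa1*-KO-labelled ones by 0.41 ± 0.14 (adjusted p = 0.0418, edgeR). On the other side of *Trp53*, *Sat2*, a polyamine acetyltransferase gene 30123 bases away, was lower than control by 0.53 ± 0.12 in *Rasa1*-KO-labelled libraries (adjusted p = 0.0038) and by 0.89 ± 0.12 in *Nf2*-KO (adjusted p = 0.0001). *Fxr2*, an RNA-binding protein gene next to it, was higher by 0.60 ± 0.20 in the *Rasa1*-KO-labelled ones (adjusted p = 0.033), and the pseudogene *Rps27-ps2* passed in no contrast with control.

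**Figure D4:**
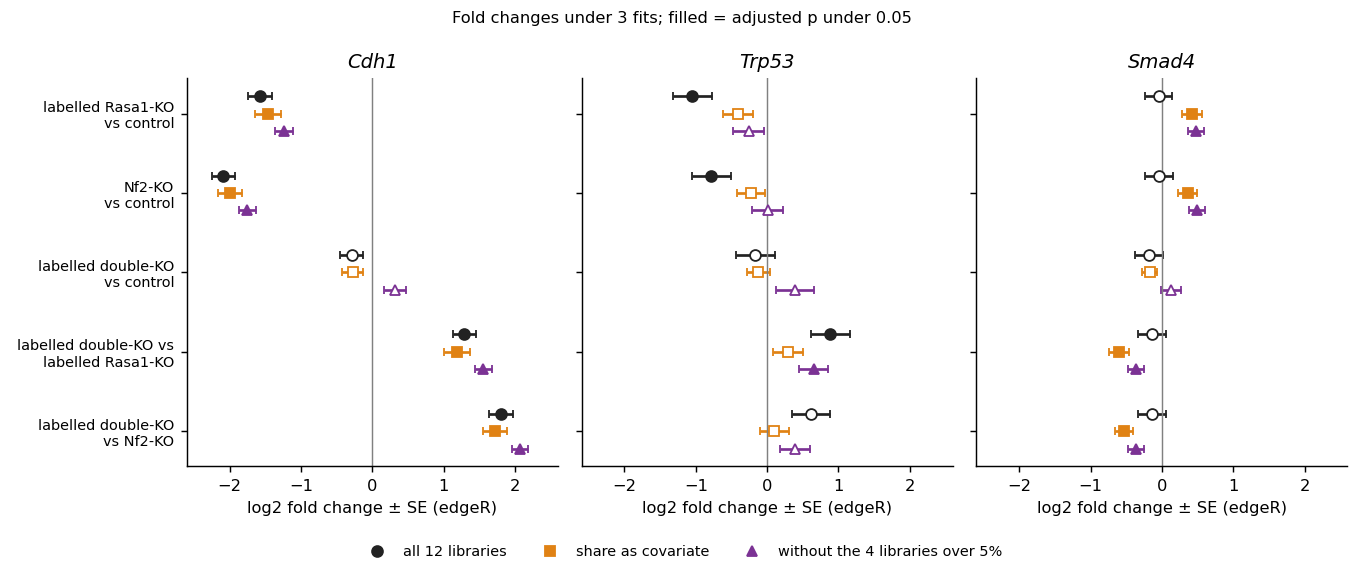
Log2 fold change ± SE (x axis, edgeR) of *Cdh1*, *Trp53* and *Smad4* in 5 comparisons (y axis) under 3 fits: all 12 libraries, the *Malat1* and *Neat1* share as a covariate, and without the 4 libraries over 5%. Filled symbols have an adjusted p under 0.05. *Cdh1* keeps its 4 calls, *Trp53* loses both calls against control, and *Smad4* gains calls of 0.36 to 0.49 against control in the 2 other fits.

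Of the 45 listed p53 pathway genes 43 were tested. Against control 11 were higher and 6 lower in the *Rasa1*-KO-labelled libraries (39.5% called), 13 higher and 9 lower in *Nf2*-KO (51.2%), and 0 higher and 1 lower in double-KO-labelled libraries (2.33%). Over all genes the shares called were 41.9%, 42.8% and 6.46%, so in this fit only the *Nf2*-KO share was above that of all genes. The 0 higher in double-KO-labelled libraries was by edgeR, beside 7 at an unadjusted p under 0.05 and 5 by DESeq2, and with the replicate block by table names 9 genes were called there. The median log2 differences of the list were 0.19, 0.03 and 0.03. With the *Malat1* and *Neat1* share as a covariate, 11 of the 43 were called in double-KO-labelled libraries, where 22.9% of all genes were called. *Trp73* and *Gdf15* were not listed in the tables, and *Trp63*, the other p53 family member, averaged 0.185 FPKM and passed in no contrast with control.

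Regulators of p53 included *Cdkn2a*, whose locus encodes p16 and the MDM2 antagonist p19 ARF, and which was the most abundant of them at 62.6 FPKM on average. It rose from 25.9 to 51.8 CPM in control libraries to 76.8 to 89.9 in the *Rasa1*-KO-labelled ones (1.17 ± 0.24) and 78.2 to 91.6 in *Nf2*-KO (1.18 ± 0.24). *Mdm2*, both a target of p53 and the ligase that degrades it, rose by 0.48 ± 0.09 and 0.57 ± 0.09. *Atm*, a kinase that signals DNA breaks, was the 1 regulator called lower, by 0.48 ± 0.11 in the *Rasa1*-KO-labelled libraries. In *Nf2*-KO *Usp7*, *Atr* and *Chek1* completed the 5 called higher. In these 2 groups the level of *Trp53* itself was below the control mean.

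Targets for cell cycle control moved both ways, with 3 higher and 2 lower of 8 in the *Rasa1*-KO-labelled libraries and 4 higher and 2 lower in *Nf2*-KO. *Psrc1*, a spindle protein gene, rose by 1.81 ± 0.26 and 2.15 ± 0.26, *Gtse1* by 0.75 ± 0.15 and 1.18 ± 0.15, and *Plk2* by 0.70 ± 0.16 and 1.16 ± 0.17. *Btg2*, an antiproliferative gene, fell from 98.0 to 126 CPM in control libraries to 55.2 to 56.4 (-0.97 ± 0.11) and 49.6 to 53.3 (-1.08 ± 0.11). *Cdkn1a*, which encodes the cell cycle inhibitor p21, had 0.87 ± 0.33 (adjusted p = 0.054) and 0.90 ± 0.33 (adjusted p = 0.048). *Sfn*, which encodes 14-3-3σ, was called lower in both groups, and in both the call was lost in either added fit.

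Of 14 apoptosis targets 3 were higher and 3 lower in the *Rasa1*-KO-labelled libraries, and 1 was higher and 6 lower in *Nf2*-KO. *Fas*, a death receptor gene, fell from 26.9 to 34.5 CPM in control libraries to 5.97 to 7.03 (-2.18 ± 0.15) and 10.9 to 12.5 (-1.34 ± 0.14). *Zmat3*, an RNA-binding protein gene, had 9.16 to 37.4 CPM in control libraries, 4.32 to 7.43 in the *Rasa1*-KO-labelled ones (-1.97 ± 0.45) and 3.78 to 8.71 in *Nf2*-KO (-2.05 ± 0.45). *Perp*, a desmosome and apoptosis gene, fell in *Nf2*-KO (-1.23 ± 0.14) and was the 1 gene called in double-KO-labelled libraries (-0.57 ± 0.14, adjusted p = 0.035). *Bax*, the most abundant of the role, was called higher in both groups (0.57 ± 0.19 and 0.61 ± 0.19), and *Bbc3*, which encodes PUMA, in the *Rasa1*-KO-labelled ones (0.85 ± 0.30, adjusted p = 0.039). *Phlda3* (0.71 ± 0.19) and *Ei24* (-0.27 ± 0.09) completed the calls there.

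Of 9 repair and metabolism targets 3 were higher in each of the 2 groups, namely *Gadd45a* (0.78 ± 0.12 and 0.58 ± 0.12), *Sesn1* (0.70 ± 0.24 and 1.0 ± 0.24) and *Sesn2* (0.61 ± 0.14 and 1.06 ± 0.14), and *Tigar* was lower in *Nf2*-KO (-0.42 ± 0.14). *Ddit4* was the most abundant of the role and passed in no contrast with control. With the covariate 12 of the 17 calls in the *Rasa1*-KO-labelled libraries and 20 of the 22 in *Nf2*-KO were kept, and without the 4 high libraries 13 and 17. *Bax* and *Sfn* lost both calls in each of these fits, and *Bbc3* and *Zmat3* lost the call in the *Rasa1*-KO-labelled libraries, where *Zmat3* ran from -2.37 to -0.51 over all alternatives. *Zmat3* lost it in *Nf2*-KO without the 4 high libraries (-0.59), as did *Atr* and *Tigar*, and *Sesn1* lost it in the *Rasa1*-KO-labelled libraries with the covariate. *Bbc3* and *Sfn* also lost it without control library 1 or 2 or without any 1 of the *Rasa1*-KO-labelled libraries, with values from 0.14 to 1.43 for *Bbc3* and -1.04 to -0.11 for *Sfn* over all alternatives. Without the unnumbered control library 26 genes were called in the *Rasa1*-KO-labelled libraries and 12 in double-KO-labelled libraries, and the latter count was 0 without labelled double-KO library 2 or 3.

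*Smad4* spans chr18:73634790-73703791 on the minus strand (RefSeq, GRCm38.p6), and it did not pass in any of the 6 comparisons of groups. Control libraries had 15.6, 21.4 and 30.0 CPM, the widest spread of the 4 groups. The *Rasa1*-KO-labelled libraries had 21.9, 23.2 and 19.6 CPM, *Nf2*-KO libraries had 22.2, 21.8 and 21.2, and double-KO-labelled libraries had 16.6, 21.4 and 20.9. The control range enclosed every other library, and the lowest value in both control and labelled double-KO came from the library with the low *Malat1* and *Neat1* share.

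The log2 differences of *Smad4* from control were -0.05 ± 0.20 in *Rasa1*-KO-labelled libraries (adjusted p = 0.860), -0.04 ± 0.20 in *Nf2*-KO (adjusted p = 0.886) and -0.18 ± 0.20 in double-KO-labelled libraries (adjusted p = 0.642, edgeR). As folds the 95% intervals ran from 0.719 to 1.30, from 0.724 to 1.31 and from 0.654 to 1.18, so changes of these sizes were not distinguished from none. Labelled double-KO libraries differed by -0.14 from the *Rasa1*-KO-labelled ones and by -0.15 from *Nf2*-KO, and the latter 2 by 0.01 (adjusted p = 0.632, 0.614 and 0.992). Over all 4 groups the adjusted p was 0.834 and the exact permutation p was 0.849.

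These values too depended on the share of *Malat1* and *Neat1*. With the covariate *Smad4* was higher than control by 0.42 in *Rasa1*-KO-labelled libraries (adjusted p = 0.0240) and by 0.36 in *Nf2*-KO (adjusted p = 0.0346), in contrasts in which 44.6% and 48.2% of all genes were called. Without the 4 high libraries it was higher by 0.48 (adjusted p = 0.0048) and 0.49 (adjusted p = 0.0042), with 48.6% and 50.9% of genes called and 1 control library left. Labelled double-KO libraries were then lower than the *Rasa1*-KO-labelled ones by 0.60 with the covariate (adjusted p = 0.0043) and by 0.36 without the 4 libraries (adjusted p = 0.0230), and lower than *Nf2*-KO by 0.53 (adjusted p = 0.0049) and 0.36 (adjusted p = 0.0208). Labelled double-KO libraries differed from control by -0.17 with the covariate (adjusted p = 0.258) and by 0.12 without the 4 libraries (adjusted p = 0.557), and *Nf2*-KO from *Rasa1*-KO-labelled libraries by -0.06 with the covariate (adjusted p = 0.754). Over all 4 groups the adjusted p was 0.0120 and 0.0054. Without control library 2 alone the first 2 differences were 0.21 and 0.22 and did not pass. What the share stands for in these libraries was not tested.

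The genes most like *Smad4* over the 12 libraries were *Cpeb2*, a translational regulator (r = 0.947), *Tent2*, a poly(A) polymerase (r = 0.943), and *Naf1*, a ribonucleoprotein assembly factor (r = 0.941). Each had a larger SD in control than in any KO group, as *Smad4* had. The nearest listed genes were *Mex3c* and *Dcc* on the lower-coordinate side and *4930578L24Rik* and *Elac1* on the other. Of these the long non-coding *4930578L24Rik*, 135 bases from *Smad4* and at 0.928 CPM in control, was called lower in *Nf2*-KO (-0.71 ± 0.26, adjusted p = 0.046). *Mex3c*, *Dcc* and *Elac1* passed in no contrast with control.

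Of the 56 listed SMAD pathway genes 52 were tested, and the balance of higher and lower calls moved with the libraries kept. Against control 17 were higher and 9 lower in *Rasa1*-KO-labelled libraries (50.0% called), 18 higher and 11 lower in *Nf2*-KO (55.8%), and 5 higher and 2 lower in double-KO-labelled libraries (13.5%), beside 41.9%, 42.8% and 6.46% of all genes. Without the unnumbered control library the first 2 groups had 18 higher and 16 lower and 21 higher and 18 lower, and without the 4 high libraries 29 and 6 and 28 and 6. The median log2 differences were 0.10, 0.27 and 0.03. *Bmpr1b*, *Smad9*, *Tgfbi* and *Msx2* were not listed in the tables.

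Among the ligands *Bmp4* rose in all 3 contrasts, from 23.5 to 27.5 CPM in control libraries to 67.2 to 69.0 in the *Rasa1*-KO-labelled ones (1.45 ± 0.11), 63.5 to 65.6 in *Nf2*-KO (1.36 ± 0.11) and 42.2 to 55.2 in the double-KO-labelled ones (0.95 ± 0.11). *Tgfb3* fell from 56.6 to 109 CPM to 23.2 to 26.3 (-1.73 ± 0.19) and 21.8 to 23.9 (-1.86 ± 0.19). *Inhbb*, an activin subunit gene, was higher in *Nf2*-KO (1.10 ± 0.20) and called lower in double-KO-labelled libraries (-0.83 ± 0.20, adjusted p = 0.030), as was the scarce *Bmp7* (-2.01 ± 0.52, adjusted p = 0.040). *Gdf11* was higher in the 2 former groups (0.63 ± 0.19 and 1.09 ± 0.19).

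Among the receptors, 4 were higher in both groups. They were *Tgfbr2*, the type II TGF-β receptor (0.84 ± 0.10 and 1.21 ± 0.10), the co-receptor *Tgfbr3* (1.10 ± 0.28 and 1.39 ± 0.28), *Acvrl1* (2.13 ± 0.40 and 3.49 ± 0.41) and the co-receptor *Eng* (2.34 ± 0.38 and 2.08 ± 0.38). *Tgfbr1*, the type I receptor, fell by 0.72 ± 0.09 and 0.82 ± 0.09, so the 2 chains of the TGF-β receptor moved in opposite directions. *Acvrl1* and *Eng*, both known from endothelial cells, were scarce, at 0.181 to 0.655 and 0.234 to 0.595 CPM in control libraries and at most 4.57 CPM in any library of the 2 groups. Of the endothelial markers, *Pecam1* was at 0.254 FPKM or less in every library and was called lower in both groups (-1.46 and -1.62), *Kdr* was at 0.156 FPKM or less and was called higher (1.35 and 1.28), and *Cdh5*, *Tie1* and *Tek* were not listed.

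*Smad3*, the most abundant of them, was higher in double-KO-labelled libraries (0.41 ± 0.09, adjusted p = 0.019) and lower in *Nf2*-KO (-0.27 ± 0.09, adjusted p = 0.029), *Smad1* was lower in *Nf2*-KO (-0.24 ± 0.09) and *Smad5* in *Rasa1*-KO-labelled libraries (-0.29 ± 0.10). *Smad2* passed in no contrast with control. The *Nf2*-KO calls of *Smad3* and *Smad1* were lost in both added fits, and the call of *Smad5* in the *Rasa1*-KO-labelled libraries was lost without the 4 high libraries. At 22.9 FPKM on average *Smad3* was above *Smad4*, which did not exceed 4.12 FPKM in any library.

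Inhibitors of the pathway were called higher for 7 of 12 and lower for 2 of 12 in both groups. Of all genes 19.7% and 20.6% were called higher there, and 22.2% lower in each. *Smad7*, the inhibitory SMAD that TGF-β itself induces, rose from 13.1 to 20.1 CPM in control libraries to 34.6 to 37.3 (1.15 ± 0.15), 32.5 to 35.1 (1.05 ± 0.15) and, in double-KO-labelled libraries, 25.3 to 31.8 (0.84 ± 0.15). *Tgif1*, a corepressor and the most abundant of the role, rose by 0.70 ± 0.09 and 0.73 ± 0.09. *Bambi*, a pseudoreceptor, fell by 1.25 ± 0.20 and 0.98 ± 0.19.

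Among nuclear partners none was called higher by edgeR, DESeq2 or an unadjusted p under 0.05, and the coactivators *Ep300* (-1.29 ± 0.45 and -1.35 ± 0.45) and *Crebbp* (-1.35 ± 0.38 and -1.10 ± 0.38) were called lower in both groups, calls that were lost in both added fits. *Foxh1* completed the 3 called lower in *Nf2*-KO and lost its call without the 4 high libraries, and *Sp1*, the most abundant, passed in no contrast with control.

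Among the targets, *Msx1*, a BMP target, rose by 1.64 ± 0.22 in *Rasa1*-KO-labelled libraries and by 1.86 ± 0.22 in *Nf2*-KO (0.85 ± 0.22, adjusted p = 0.040, in double-KO-labelled libraries), and *Cdkn2b*, which encodes p15, by 1.14 ± 0.24 and 1.23 ± 0.24. The ID family split, with *Id1* lower (-0.44 ± 0.12 and -0.91 ± 0.12) and *Id2* higher (0.97 ± 0.11 and 0.41 ± 0.11). *Ltbp3*, a latent TGF-β binding protein gene, was called lower in *Nf2*-KO (-1.11 ± 0.35), a call that was lost in both added fits.

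With the covariate 19 of the 26 SMAD calls in *Rasa1*-KO-labelled libraries and 23 of the 29 in *Nf2*-KO were kept, and without the 4 high libraries 20 and 22. *Id1* lost its call in the *Rasa1*-KO-labelled libraries with the covariate, as did *Gdf11*, and without the unnumbered library of that group. In double-KO-labelled libraries *Bmp4* and *Smad7* kept their calls in 16 of 17 alternatives, *Inhbb* and *Msx1* in 10. The count of 7 there became 17 without the unnumbered control library and 3 without labelled double-KO library 2 or 3.

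**Figure D5:**
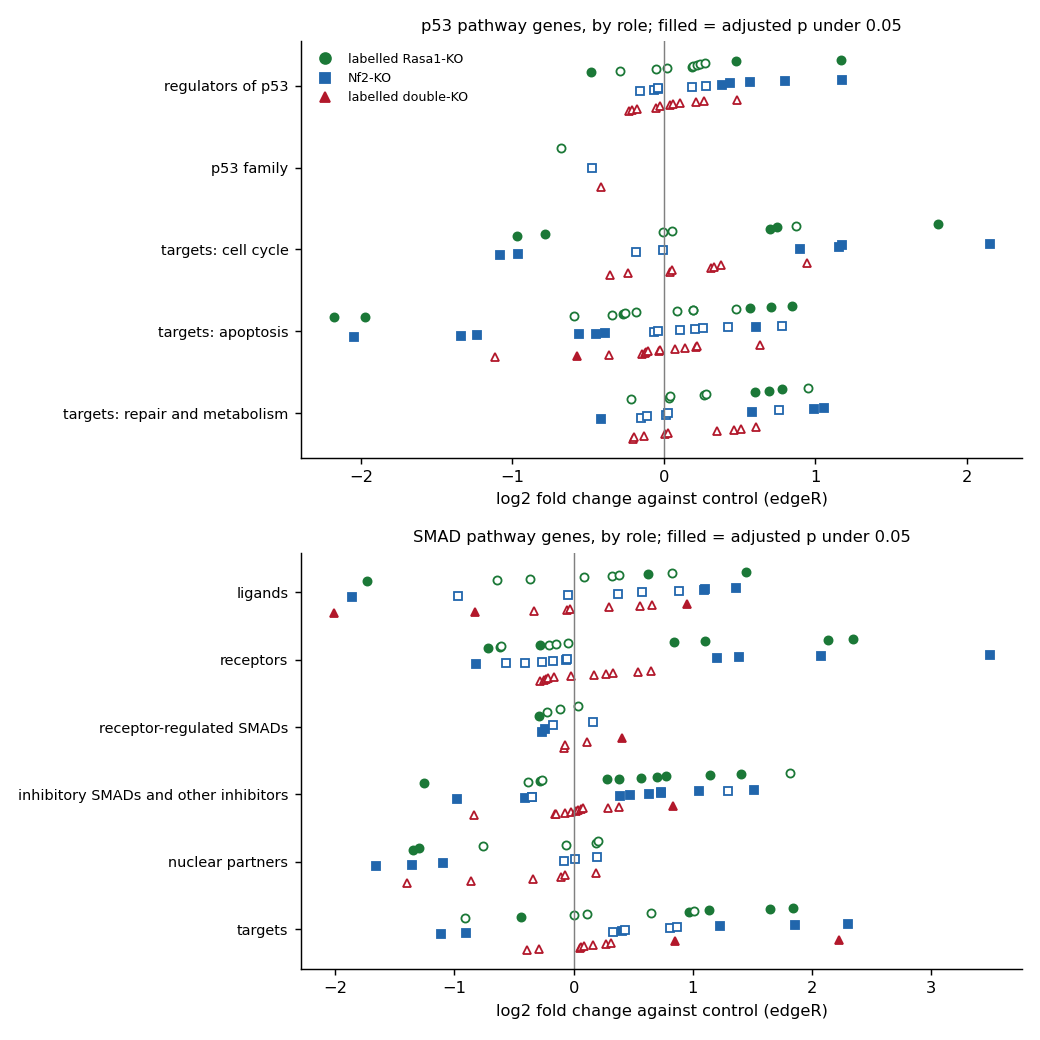
Log2 fold change against control (x axis, edgeR) of 43 p53 pathway genes (upper panel) and 52 SMAD pathway genes (lower panel), by role (y axis), with filled symbols for an adjusted p under 0.05. Cell cycle and apoptosis targets of p53 are filled on both sides of 0, and 7 of 12 inhibitors of SMAD signalling are filled to the right in labelled *Rasa1*-KO and in *Nf2*-KO libraries.

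Transcripts known as markers of other cell types moved with the same groups, and their part in the results above was not tested. Of 8 fibroblast and mesenchymal markers 6 were in the tables, and all 6 were called in both low groups (41.9% and 42.8% of all genes were), *Col1a1*, *Col1a2*, *Col3a1*, *Pdgfra* and *Pdgfrb* higher and *Dcn* lower. Their summed level was on average 122 FPKM in control, 412 in *Rasa1*-KO-labelled libraries, 1209 in *Nf2*-KO and 39.3 in double-KO-labelled libraries, most of it *Col3a1*. Over single libraries the sum ran from 22.2 to 1236 FPKM. In the *Rasa1*-KO-labelled libraries *Col3a1* had adjusted p = 0.029 and *Pdgfrb* 0.028 (edgeR). The fits on the *Malat1* and *Neat1* share are not given for the cell type markers. *Dcn* was the 1 of the 6 called in double-KO-labelled libraries, and was lower (-2.14, adjusted p = 0.00089, edgeR), where 6.46% of all genes were called. *Lum* and *Thy1* were not listed. All libraries came from cultured S1 cells, and the sources name no other cell type in them. A marker here therefore does not show that cells of its type were present. In bulk RNA, fewer cells with a transcript and less of it per cell cannot be told apart.

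Of 9 epithelial markers 7 were in the tables, with *Krt8* the most abundant, and they summed to 2755 FPKM in control, 4303 in *Rasa1*-KO-labelled libraries, 3003 in *Nf2*-KO and 3621 in double-KO-labelled libraries. Of the 7, 6 were called in *Rasa1*-KO-labelled libraries, 3 in *Nf2*-KO and 2 in double-KO-labelled libraries. Of all genes tested, 41.9%, 42.8% and 6.46% were called in these contrasts. *Epcam*, an epithelial adhesion gene and the 1 called lower, fell by 1.55 and 2.63 in the 2 low groups and by 0.84 in double-KO-labelled libraries (adjusted p = 5.6e-05, 1.0e-06 and 0.0173, edgeR). *Krt7* rose by 2.46 and 0.98 and *Cldn3*, which encodes a tight junction claudin, by 0.89 and 0.44 in the 2 low groups. *Krt8* (0.64), *Krt18* (0.83) and *Krt19* (0.70) rose in the *Rasa1*-KO-labelled libraries, and *Krt19* in double-KO-labelled ones (0.72).

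Of 11 gastric epithelial marker symbols, of which *Gif* and *Cblif* name 1 gene, 5 were listed, led by *Anxa10*, and they summed to 4.76, 10.6, 4.37 and 13.3 FPKM in control, labelled *Rasa1*-KO, *Nf2*-KO and double-KO-labelled libraries. *Anxa10* was called higher in the *Rasa1*-KO-labelled (1.54) and double-KO-labelled libraries (2.54), *Tff1* higher in the former (2.25) and *Atp4a* lower in *Nf2*-KO (-1.04). *Muc5ac* did not exceed 0.693 FPKM and was called lower in all 3 contrasts (-3.97, -4.47 and -1.93), and *Muc6*, *Gkn1*, *Gkn2*, *Pgc* and *Cblif*, other defining markers of stomach epithelium, were not listed. Endothelial markers summed to 0.390 FPKM at most, with 2 of 5 listed. Leukocyte markers (2 of 5 listed) summed to 16.2 FPKM at most, nearly all of it *Cd68*, which was called higher in both low groups (1.58 and 1.02), and *Ptprc*, the pan-leukocyte marker, did not exceed 0.0971. Smooth muscle markers (3 of 4 listed) summed to 6.39 FPKM at most, led by *Acta2*, which was called lower in the *Rasa1*-KO-labelled libraries (-1.82) and higher in the double-KO-labelled ones (1.91).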

How the data were processed

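Gene tables of 12 S1 libraries (TruSeq Stranded Total RNA Gold, NovaSeq, paired ends) were used as deposited. Per the labels' processing notes the authors used Trimmomatic 0.38, HISAT2 2.1.0, SAMtools 1.9 and StringTie 2.1.3b on mm10. The deposited read counts per gene are raw, and the deposited FPKM and TPM values were normalized by the authors per length and per library. Another deposited column holds log2 values that the authors normalized, and was not used. The study's methods name RLE normalization and rlog values but not for this column. The tables listed 18926 genes, none at 0 in any library. *Rn7sk*, *Rn7s1* and *Rn7s2* held 7.17% to 13.9% of counts and 36.4% to 51.1% of TPM, so FPKM was used for levels.

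Counts were fitted with edgeR 4.0.16 in R 4.3.3 (quasi-likelihood test, TMM, filterByExpr, 18053 genes, all 12 libraries and 4 groups in 1 fit, Benjamini-Hochberg over all genes, threshold 0.05), with no covariate. CPM are TMM-scaled with no prior count, and likeness used log2 CPM with a prior count of 2. Intervals of 95% used 11.5 degrees of freedom. Alternatives were RLE size factors, no filter on low counts, a replicate block, fits of 2 groups, each library left out, DESeq2 1.42.0, limma 3.58.1 on log2(FPKM + 1) and log2(FPKM + 0.1), a 3-fold rule, and exchanged labels. The fits on the *Malat1* and *Neat1* share were chosen after seeing the data. By the numbers in the table names, same-numbered control and double-KO-labelled libraries deviated together (correlations of 0.313 to 0.626), but libraries 1 and 2 did so across numbers too (0.258 and 0.399), and no other groups paired. Scripts were tested on simulated counts.

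The 3 genes and the gene lists were chosen with earlier results of these data known. Named genes were the 4 most raised and 4 most lowered per list and contrast with control among those called, at 1 CPM or more and without overlap between groups, the most abundant gene of each role, the 3 genes most like each member, and the 2 nearest listed genes on each side. One gene that the rule names is counted in its list but not reported here. Positions and sequence come from RefSeq for GRCm38.p6, to which 18878 genes matched.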

Additional observations from a re-analysis of the deposited data

How the results depend on the processing

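Of 540 alternative values 425 kept their direction and side of the threshold, or a count within 1.5 times. The log2 falls of *Cdh1* in *Rasa1*-KO-labelled (R) and *Nf2*-KO (N) libraries against control kept their call in every alternative but exchanged labels, for R. D stands for double-KO-labelled libraries and C for control. Causes of the changes below were not tested.

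Leaving out 1 library gave these ranges of log2 differences. *Cdh1*: D against C -0.43 to -0.15. *Trp53*: N against C -1.05 to -0.53, D against C -0.44 to 0.11, D against R 0.78 to 1.07, N against R 0.18 to 0.46, and all 4 groups adjusted p = 0.00020 to 0.062 (edgeR, call lost in 3 of these). *Smad4*: R against C -0.25 to 0.21, N against C -0.24 to 0.22, D against C -0.39 to 0.091, N against R -0.055 to 0.065. *Smad4* in D against R ran from -0.20 to -0.029, and in D against N from -0.21 to -0.039. Counts of called genes ranged, for junction, p53 and SMAD lists, from 14 to 27, 12 to 26 and 18 to 34 in R, and from 0 to 21, 0 to 12 and 3 to 17 in D.

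With the *Malat1* and *Neat1* share as a covariate the differences were -0.53 for *Cdh1* (N against R), -0.41 (R against C), -0.23 (N against C) and 0.29 (D against R) for *Trp53*, and 0.42 (R against C), 0.36 (N against C), -0.60 (D against R), -0.53 (D against N) and -0.064 (N against R) for *Smad4*. The adjusted p over all 4 groups was 0.374 for *Trp53* and 0.0120 for *Smad4*, and D counts were 16, 11 and 14. Without the 4 libraries over 5% they were 0.31 for *Cdh1* (D against C), -0.26, 0.0084 and 0.39 for *Trp53* (R, N and D against C), and 0.48, 0.49, 0.12, -0.36 and -0.36 for *Smad4* (R, N and D against C, D against R, D against N), with adjusted p of 0.0868 and 0.00536 over all 4 groups and D counts of 18, 13 and 24. Without the 2 libraries whose tables have no number, D against C was -0.56 for *Cdh1* and D against N 0.73 for *Trp53*, both gaining a call, R counts were 29, 30 and 40, and D counts were 17, 15 and 16.

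Fits of 2 groups alone gained the calls of *Cdh1*, N against R (-0.51), and *Trp53*, D against N (0.61), and lost those of *Trp53*, R against C (-1.04) and N against C (-0.82). DESeq2 gained the call of *Cdh1*, N against R (-0.51), and gave D counts of 9 (junction) and 7 (p53). With no filter on low counts the D counts of these lists were 2 and 0. A 3-fold rule with unadjusted p under 0.05 left 4, 3 and 6 genes in R, 4, 2 and 6 in N, and 1, 0 and 2 in D. Exchanging the labels of R and D gave -0.29 (R), -1.57 (D), -1.29 (D against R), 0.51 (D against N) and -1.80 (N against R) for *Cdh1*, -0.17, -1.05, -0.89, -0.27 and -0.61 for *Trp53*, and 0.14 (D against R) for *Smad4*, with counts of 4, 1 and 7 in R and 18, 17 and 26 in D.

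Numbers in the titles did not pair the libraries: deviations correlated by -0.045 to 0.164 between C and R. A replicate block by these numbers gave 0.61 (D against R, call lost) and -0.0015 (N against R) for *Trp53*, 2.8e-05 (R against C) and -0.13 (N against R) for *Smad4*, and D counts of 0, 0 and 4. Numbers in the table names correlated by 0.313 to 0.626 between C and D and by -0.055 to 0.174 between other groups. A replicate block by them gained the call of *Trp53*, D against N (0.84), gave D counts of 11 and 9 in the junction and p53 lists, and changed no other call on the 3 genes. *Trp53* had the fewest counts of the 3 genes, 218 to 520 per library.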
